A study of Rattus norvegicus with 8 samples.

Results

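Eicosanoids are short-lived lipid mediators made from arachidonic acid, a fatty acid held in membrane phospholipids. Cytosolic phospholipase A2 frees it from the membrane, 5-lipoxygenase and its helper protein turn it into leukotrienes, and the cyclooxygenases turn it into prostaglandins and thromboxane. Peritoneal macrophages are a classical source of these mediators, which act on blood vessels, on nerves and on leukocytes arriving in the cavity. The genes described here are the 10 enzymes and enzyme partners Pla2g4a, Alox5, Alox5ap, Lta4h, Ltc4s, Alox15, Ptgs1, Ptgs2, Ptges and Tbxas1. They were chosen with earlier results of these data known and were matched by their symbols. All 10 were found among the 23487 genes of the count table.

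The RNA came from sorted peritoneal macrophages (CD11b/c high, His48 dim) of female Wistar rats that had received carbon nanotubes into the peritoneum 15 days earlier. Their age is given as 8 weeks, which the paper states for the rats as purchased. Of the 8 rats, 4 were given MWCNT-XNRI-7 (CNT-7), needle-like nanotubes that cause mesothelioma, and 4 were given tangled nanotubes (CNT-T), which do not. The labels number the CNT-7 rats 3, 5, 10 and 11 and the CNT-T rats 1, 2, 12 and 13. Each library was 1 rat. Untreated rats were not analysed here, so each difference is one between both particles and says nothing of a change from the resting state.

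Each library held between 27195157 counts and 33732981 counts assigned to genes. Levels are given as CPM, which are counts brought to one common library size after TMM scaling, and they are not divided by gene length, so they compare rats and not genes. At this depth 3 counts, taken as the smallest level that can be seen, lie between 0.0887 CPM and 0.109 CPM. All 10 macrophage markers examined were present in every rat, Lyz2 at 12197 CPM or more and Csf1r at 1131 CPM or more. Markers of mesothelial cells summed to 1.01 CPM at most and those of platelets to 1.91 CPM at most. Of all 23487 genes, 6820 had 0 counts in every rat, so a marker at 0 counts does not by itself show that a cell type was absent. CNT-7 rat 3 stood out for the eosinophil markers Ccr3 and Il5ra, and CNT-7 rat 5 for the sums of T and B cell markers. With Siglec5 included, the sum of eosinophil markers was highest in CNT-7 rat 5, at 305 CPM. Calls that were lost without these 2 rats are named beside the gene. In bulk RNA, fewer cells of a type and less RNA per cell cannot be told apart.

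Of the 10 genes, 8 had enough counts to be tested and 2, Ptgs2 and Ptges, had not. Significantly higher in CNT-7 than in CNT-T were 5 of the 8, namely Alox5, Lta4h, Ltc4s, Ptgs1 and Tbxas1, and 0 were significantly lower (edgeR, adjusted p-value under 0.10 over all 12124 genes tested), which was 0 also by DESeq2 and at an unadjusted p-value under 0.05. Over all genes tested, 27.9% passed, 13.9% as higher and 14.0% as lower in CNT-7. Because the enzymes were chosen with earlier results of these data known, these shares do not test them as a set. The median log2 fold change of the 8 genes was 0.63, beside 0.0083 over all genes tested. The groups did not overlap for 4 of the 8 genes, all with CNT-7 above, and CNT-7 lay above CNT-T without overlap in 12.3% of all genes tested.

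**Figure D1:**
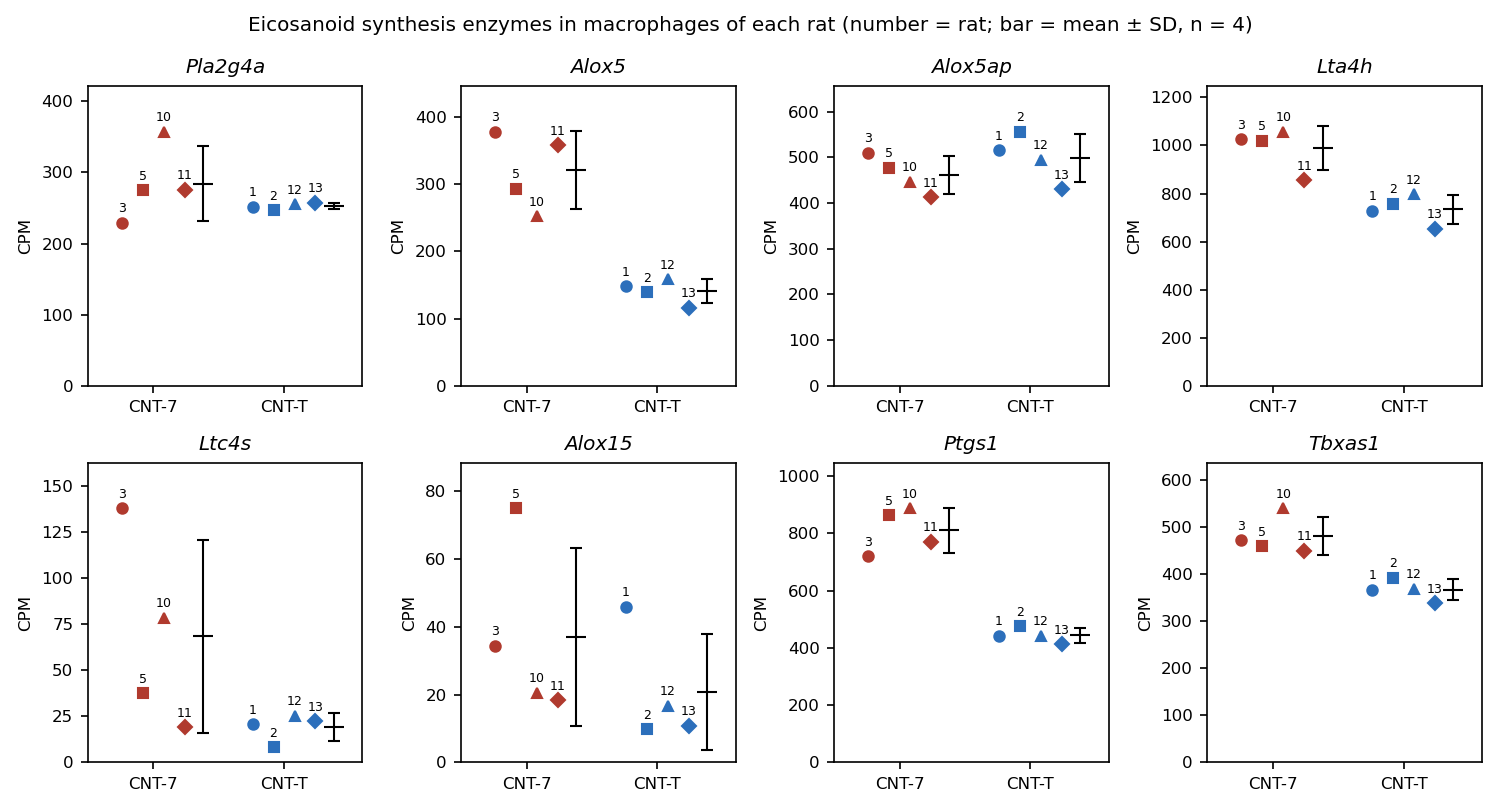
Levels of the 8 tested enzymes in each rat, in CPM on a linear axis from 0, with CNT-7 rats in red and CNT-T rats in blue. Numbers are rat numbers and black bars are mean ± SD over 4 rats. Alox5, Lta4h, Ptgs1 and Tbxas1 separate the groups, whereas Ltc4s and Alox15 spread widely among rats of the same group.

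The stretches of 250 bases before the start of the genes that rose are shown because these are the enzymes that were significantly higher, with that of Ptgs2 as a cyclooxygenase gene that was hardly read. They are RefSeq sequences of the assembly GRCr8, which is not the assembly the authors counted against, and 8 of the 10 genes had an entry (not Alox5ap or Alox15). Capitals mark matches, on either strand, to TATAAA (the TATA box), GGGCGG (the GC box), GAGGAA (a core of PU.1 sites) and CACGTG (an E-box).
Alox5: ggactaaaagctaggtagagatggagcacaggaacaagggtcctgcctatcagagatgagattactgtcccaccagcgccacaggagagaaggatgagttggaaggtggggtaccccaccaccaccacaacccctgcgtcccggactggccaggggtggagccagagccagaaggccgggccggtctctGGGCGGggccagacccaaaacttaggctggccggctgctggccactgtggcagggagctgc
Lta4h: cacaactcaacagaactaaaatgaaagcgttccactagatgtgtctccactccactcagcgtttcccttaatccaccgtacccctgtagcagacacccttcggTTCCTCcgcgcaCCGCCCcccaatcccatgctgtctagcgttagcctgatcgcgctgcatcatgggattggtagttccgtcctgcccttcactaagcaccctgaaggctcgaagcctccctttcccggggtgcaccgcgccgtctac
Ltc4s: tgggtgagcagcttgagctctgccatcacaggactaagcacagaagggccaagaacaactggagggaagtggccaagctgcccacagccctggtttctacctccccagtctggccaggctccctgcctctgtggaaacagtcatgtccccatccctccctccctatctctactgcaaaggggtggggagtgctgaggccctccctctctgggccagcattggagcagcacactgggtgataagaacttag
Ptgs1: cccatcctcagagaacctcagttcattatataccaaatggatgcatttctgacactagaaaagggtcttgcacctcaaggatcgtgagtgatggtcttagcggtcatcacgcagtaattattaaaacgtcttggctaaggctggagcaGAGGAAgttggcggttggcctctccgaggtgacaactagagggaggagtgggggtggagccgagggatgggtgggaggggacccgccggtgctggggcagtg
Tbxas1: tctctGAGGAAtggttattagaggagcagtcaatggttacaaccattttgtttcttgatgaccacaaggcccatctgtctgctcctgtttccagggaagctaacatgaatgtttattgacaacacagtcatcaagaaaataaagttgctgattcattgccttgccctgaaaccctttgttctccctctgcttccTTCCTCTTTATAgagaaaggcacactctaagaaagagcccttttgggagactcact
Ptgs2: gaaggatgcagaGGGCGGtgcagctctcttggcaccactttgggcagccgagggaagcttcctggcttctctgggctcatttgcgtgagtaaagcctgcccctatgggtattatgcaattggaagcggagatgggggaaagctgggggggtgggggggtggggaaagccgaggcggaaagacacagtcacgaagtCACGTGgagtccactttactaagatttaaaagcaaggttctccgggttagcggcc

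These stretches lie at chr4:151251127-151251376 on the minus strand for Alox5, chr7:29856621-29856870 on the plus strand for Lta4h and chr10:35063595-35063844 on the minus strand for Ltc4s. Those of Ptgs1, Tbxas1 and Ptgs2 lie on the plus strand at chr3:39981169-39981418, chr4:68631635-68631884 and chr13:64713813-64714062. The 5 genes that rose shared no motif. A GC box stood before Alox5 and Lta4h, a PU.1 core before Lta4h, Ptgs1 and Tbxas1, and a TATA box before Tbxas1, where it directly follows a PU.1 core without overlap. Ltc4s had none of the 4 motifs, and Ptgs2 had a GC box and an E-box. Among 33469 stretches of the same length, 12.9% held the TATA box, 30.5% the GC box, 23.3% the PU.1 core and 5.59% the E-box. A match is a run of letters and not a measured binding site.

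Pla2g4a (ENSRNOG00000002657) encodes the cytosolic phospholipase A2 that releases arachidonic acid for all the enzymes that follow. It was at 229 CPM, 275 CPM, 357 CPM and 276 CPM in CNT-7 rats 3, 5, 10 and 11, and at 252 CPM, 247 CPM, 255 CPM and 258 CPM in CNT-T rats 1, 2, 12 and 13. The CNT-T rats were almost alike, with a coefficient of variation of 1.89%, whereas CNT-7 rat 3 lay below and CNT-7 rats 5, 10 and 11 above all of them. The difference was not significant (log2 fold change 0.17 with a standard error of 0.12, and adjusted p = 0.36, edgeR).

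Alox5 (ENSRNOG00000012972) encodes 5-lipoxygenase, which performs the first steps of leukotriene synthesis. It was at 378 CPM, 293 CPM, 253 CPM and 358 CPM in CNT-7 rats 3, 5, 10 and 11, and at 149 CPM, 139.7 CPM, 159 CPM and 116 CPM in CNT-T rats 1, 2, 12 and 13. Every CNT-7 rat was above every CNT-T rat. The CNT-7 mean was 320.3 ± 57.8 CPM and the CNT-T mean 141 ± 18.1 CPM (SD, n = 4), a 2.28-fold rise (log2 fold change 1.19 with a standard error of 0.14, and adjusted p = 0.00073, edgeR). Among all genes tested, 96.0% had a lower log2 fold change.

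Alox5ap (ENSRNOG00000000907) encodes FLAP, the membrane protein that presents arachidonic acid to 5-lipoxygenase. Its level was between 413 CPM and 510.2 CPM in the CNT-7 rats and between 430.4 CPM and 556 CPM in the CNT-T rats, with the groups lying over each other. The fitted log2 fold change was -0.11 (with a standard error of 0.099, and adjusted p = 0.48, edgeR). The ratio of Alox5 to Alox5ap within a rat is given with no test and compares rats only. It was 0.74, 0.61, 0.57 and 0.87 in CNT-7 rats 3, 5, 10 and 11, and 0.29, 0.25, 0.32 and 0.27 in CNT-T rats 1, 2, 12 and 13, without overlap.

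The product of 5-lipoxygenase, leukotriene A4, is taken to leukotriene B4 by Lta4h (ENSRNOG00000004494) or joined to glutathione by Ltc4s (ENSRNOG00000003244), the entry to the cysteinyl leukotrienes. Lta4h was at 1026 CPM, 1019 CPM, 1057 CPM and 856 CPM in CNT-7 rats 3, 5, 10 and 11, and at 729 CPM, 757 CPM, 796 CPM and 653 CPM in CNT-T rats 1, 2, 12 and 13. The lowest CNT-7 rat, rat 11, was still above the highest CNT-T rat. The rise was 1.35-fold (log2 fold change 0.43 with a standard error of 0.094, and adjusted p = 0.0105, edgeR). Without CNT-7 rats 3 and 5 together, which leaves 2 CNT-7 rats, its fitted log2 fold change was 0.37 and the adjusted p-value 0.12, above the threshold.

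Ltc4s had the largest fold change of the 8 tested enzymes and the widest relative spread among the CNT-7 rats. It was at 138 CPM, 37.6 CPM, 78.5 CPM and 19.1 CPM in CNT-7 rats 3, 5, 10 and 11, and at 20.8 CPM, 8.19 CPM, 25.3 CPM and 22.3 CPM in CNT-T rats 1, 2, 12 and 13. CNT-7 rats 3, 5 and 10 were above every CNT-T rat, but CNT-7 rat 11 lay within the CNT-T range. The highest CNT-7 rat had 7.19 times the level of the lowest, beside 3.09 times in CNT-T. The CNT-7 mean was 68.2 ± 52.5 CPM and the CNT-T mean 19.1 ± 7.54 CPM (SD, n = 4), a 3.57-fold rise (log2 fold change 1.84 with a standard error of 0.56, and adjusted p = 0.0454, edgeR). The call rested on single rats: the adjusted p-value was 0.12 without CNT-7 rat 3 (log2 fold change 1.24) and 0.11 without CNT-T rat 2 (log2 fold change 1.58).

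Ltc4s is also known from eosinophils, so the markers of these cells are given beside it. Ccr3, an eosinophil chemokine receptor, was at 8.74 CPM in CNT-7 rat 3, the rat with the highest Ltc4s, and at 0.64 CPM, 0.18 CPM and 0.18 CPM in CNT-7 rats 5, 10 and 11. In the CNT-T rats it was between 0.11 CPM and 0.30 CPM. CNT-7 rat 10 had the second highest Ltc4s and a Ccr3 level within the CNT-T range. Il5ra, another eosinophil marker, had 17 counts in CNT-7 rat 3 and at most 1 count in any other rat. The 5 eosinophil markers other than Siglec5 summed to between 0.18 CPM and 9.33 CPM in CNT-7 and between 0.11 CPM and 0.36 CPM in CNT-T, and Epx and Prg3, genes of the granule proteins, were at 0 counts in all 8 rats. Siglec5, the other gene of the list, was between 151 CPM and 305 CPM in CNT-7 and between 146 CPM and 208 CPM in CNT-T. The part of eosinophils in the Ltc4s level of CNT-7 rat 3 or of any other rat was not tested. Mast cells also express Ltc4s, and the 8 mast cell markers in the table summed to between 0.66 CPM and 1.92 CPM in CNT-7 and between 0.030 CPM and 2.51 CPM in CNT-T.

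**Figure D2:**
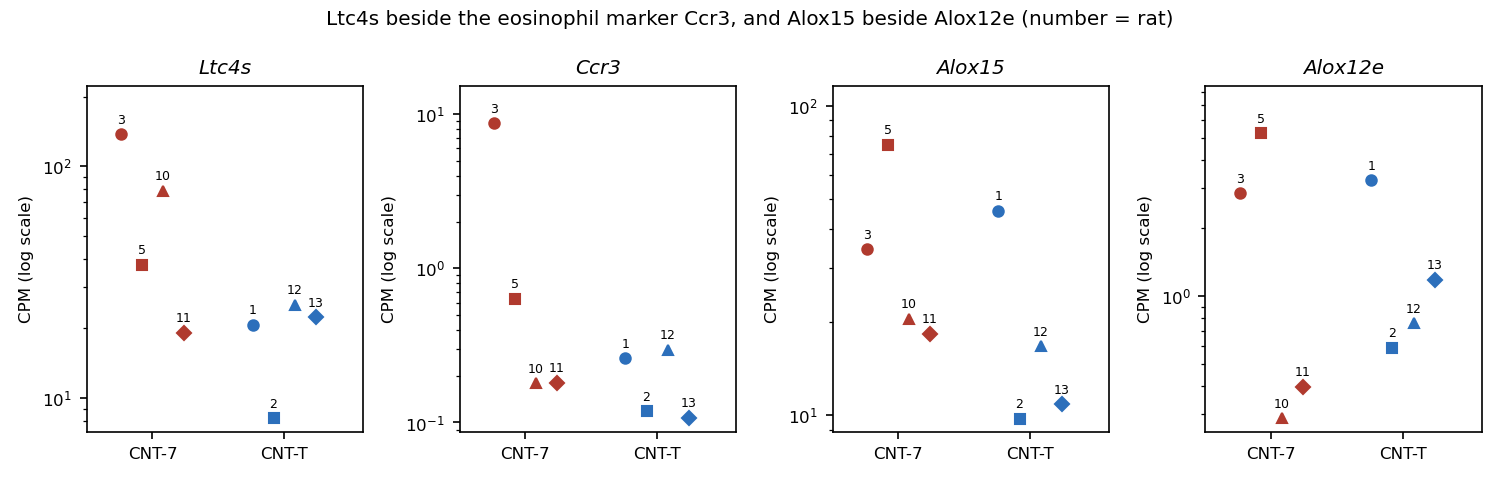
Ltc4s, the eosinophil marker Ccr3, Alox15 and the related gene Alox12e in each rat, in CPM on a log axis, with CNT-7 in red, CNT-T in blue and numbers giving the rat. CNT-7 rat 3 is highest for both Ltc4s and Ccr3, and CNT-7 rat 10 is second for Ltc4s with a Ccr3 level of 0.18 CPM. CNT-7 rat 5 and CNT-T rat 1 are the highest of their groups for both Alox15 and Alox12e.

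The 5 tested genes whose levels followed Ltc4s most closely over the 8 rats were Gper1, Lingo3, Serinc2, Card14 and one without a symbol of its own. Likeness was the root mean square difference of log2 CPM, each gene centred on its mean, and it lay between 0.49 and 0.65. Gper1, an oestrogen receptor of the membrane, was at 2.17 CPM, 1.07 CPM, 1.30 CPM and 0.76 CPM in CNT-7 rats 3, 5, 10 and 11 and between 0.24 CPM and 0.47 CPM in CNT-T. Card14, a signalling adaptor, was at 11.4 CPM, 9.28 CPM, 15.1 CPM and 5.68 CPM in the same CNT-7 rats and between 2.99 CPM and 3.98 CPM in CNT-T. These genes were picked for their likeness over these same rats, so a shared order of rats is no further result.

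Alox15 (ENSRNOG00000019183) encodes the 12/15-lipoxygenase, which makes hydroxy acids and precursors of lipoxins and marks resident peritoneal macrophages of the mouse. It was at 34.4 CPM, 74.9 CPM, 20.5 CPM and 18.4 CPM in CNT-7 rats 3, 5, 10 and 11, and at 45.9 CPM, 9.75 CPM, 16.7 CPM and 10.8 CPM in CNT-T rats 1, 2, 12 and 13. A single CNT-T rat, rat 1, lay above CNT-7 rats 3, 10 and 11, and the other 3 CNT-T rats lay below every CNT-7 rat. The fitted log2 fold change was 0.83 (with a standard error of 0.58, and adjusted p = 0.35, edgeR). It passed the threshold without CNT-T rat 1 (log2 fold change 1.58, adjusted p = 0.058, edgeR), was 0.23 without CNT-7 rat 5, and turned to -0.11 without CNT-7 rats 3 and 5 together. Alox12e, a related lipoxygenase gene, was highest in the same rats, at 5.26 CPM in CNT-7 rat 5 and 3.26 CPM in CNT-T rat 1, and between 0.29 CPM and 2.86 CPM in the others. Whether reads were divided between these similar genes was not tested. CNT-7 rat 5 also had the highest T cell marker sum, 5.90 CPM, and the highest B cell marker sum, 2.78 CPM, and their part in its Alox15 level was not tested.

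The cyclooxygenases turn arachidonic acid into prostaglandin H2. Ptgs1 (ENSRNOG00000007415), the constitutive form, was at 721 CPM, 864 CPM, 888 CPM and 772 CPM in CNT-7 rats 3, 5, 10 and 11, and at 443 CPM, 476 CPM, 443 CPM and 412 CPM in CNT-T rats 1, 2, 12 and 13. The groups stood well apart. The CNT-7 mean was 811 ± 78.5 CPM and the CNT-T mean 444 ± 26.3 CPM (SD, n = 4), a 1.83-fold rise (log2 fold change 0.87 with a standard error of 0.088, and adjusted p = 0.00035, edgeR). Leaving out any one rat gave log2 fold changes from 0.83 to 0.92.

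Ptgs2 (ENSRNOG00000002525), the inducible cyclooxygenase, had 25, 6, 0 and 3 counts in CNT-7 rats 3, 5, 10 and 11 and 0 counts in each CNT-T rat. It was below the filter on low counts and was not tested. The mean of 0.28 CPM after CNT-7 was at least 2.88-fold higher than the mean level that 3 counts per library would give in CNT-T. This limit came from CNT-7 rat 3, the rat with the highest Ccr3, and fell to 1.05-fold without it. Ptges (ENSRNOG00000006320), the inducible prostaglandin E synthase, had 1 count in CNT-7 rat 3 and 0 counts in the other rats, so that both groups were below the smallest level that can be seen.

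Tbxas1 (ENSRNOG00000007918) encodes thromboxane synthase, which converts prostaglandin H2 to thromboxane A2. It was at 472 CPM, 460.2 CPM, 540.4 CPM and 450.2 CPM in CNT-7 rats 3, 5, 10 and 11, and at 367 CPM, 393 CPM, 369 CPM and 338 CPM in CNT-T rats 1, 2, 12 and 13. The groups did not overlap, and the rise was 1.31-fold (log2 fold change 0.39 with a standard error of 0.082, and adjusted p = 0.0092, edgeR). Platelets are another source of Ptgs1 and Tbxas1 transcripts. The platelet markers Gp9, Gp1ba, Gp1bb and Gp5 were at 0 counts in all 8 rats. Another platelet gene, Gp6, was higher in CNT-7 without overlap, with 25, 5, 2 and 2 counts in CNT-7 rats 3, 5, 10 and 11 and at most 1 count in a CNT-T rat. Gp6 was too low to be tested. Of the other platelet markers with counts, Itga2b was not significant (log2 fold change -0.057). Treml1 had 22 counts over the CNT-7 rats and 25 over the CNT-T rats, Clec1b 18 and 27, and Ppbp 1 and 1. The part of platelets in the rises of Ptgs1 and Tbxas1 was not tested. The ratio of Ptgs1 to Tbxas1 was between 1.53 and 1.88 in CNT-7 and between 1.20 and 1.22 in CNT-T, where it was almost the same in each rat.

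**Figure D3:**
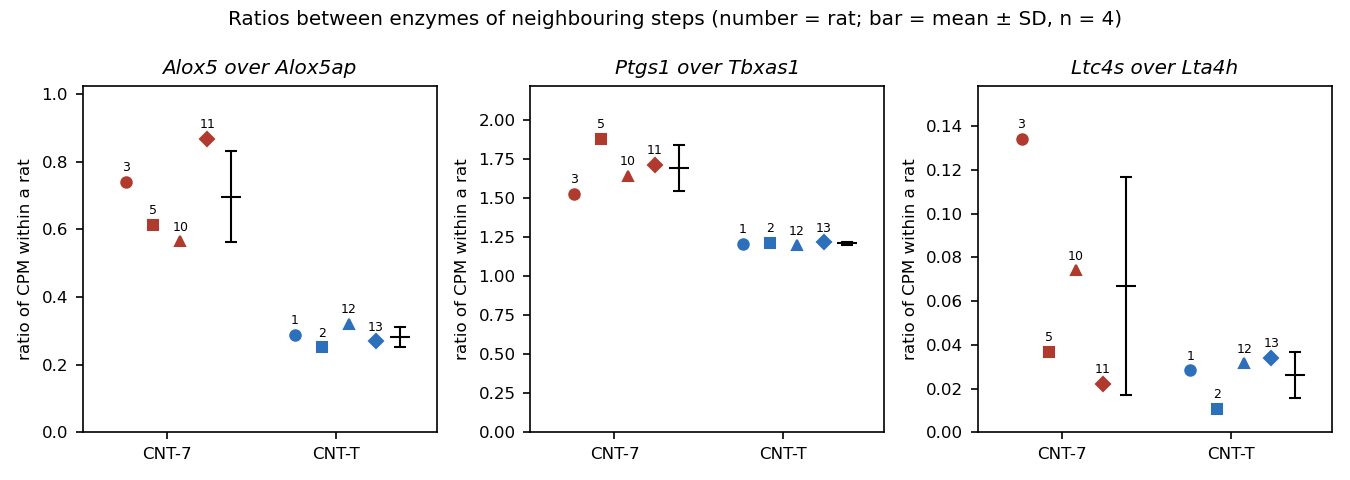
Ratio of the CPM values of enzymes of neighbouring steps within each rat, on linear axes from 0, with CNT-7 in red, CNT-T in blue, rat numbers beside the points and black bars for mean ± SD over 4 rats. Alox5 over Alox5ap and Ptgs1 over Tbxas1 separate the groups, whereas Ltc4s over Lta4h overlaps.

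The other genes of the pathway were taken from lists of 82 symbols, of which 76 were in the table and 44 could be tested. Of these 44, 10 were significantly higher and 9 significantly lower in CNT-7, which is 43.2% beside 27.9% of all genes tested. Their median log2 fold change was 0.020. Because the lists were chosen with earlier results of these data known, these shares do not test the pathway. The 17 significant genes with at least 1 CPM on average are named, and the plot of log2 fold changes shows them. A few genes that were not significant are given as examples, chosen after their values were seen. Plaat3, Ptgr3, Ptgis, Ggt5, Cyp2j3 and Ptgdr were not analysed here under these symbols.

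Among phospholipases and genes that handle arachidonate, 4 of 12 tested were higher and 2 lower. Pla2g7, which encodes the secreted hydrolase of platelet-activating factor, was at 334 CPM, 392 CPM, 452 CPM and 183 CPM in CNT-7 rats 3, 5, 10 and 11, and at 10.7 CPM, 5.97 CPM, 3.46 CPM and 3.22 CPM in CNT-T rats 1, 2, 12 and 13. No CNT-7 rat came near the CNT-T rats, and the rise was 58.0-fold (log2 fold change 5.86 with a standard error of 0.46, and adjusted p = 0.00013, edgeR). Pla2g2d, a secreted phospholipase A2 of lymphoid macrophages and dendritic cells, rose 5.13-fold, from 52.3 ± 9.73 CPM to 268 ± 116 CPM (SD, n = 4, and adjusted p = 0.00084, edgeR). Pla2g2a (1.44-fold) and Pnpla8 (1.36-fold), another phospholipase, were higher, and Lpcat2, which returns fatty acids to membrane lipids and makes platelet-activating factor, fell by 0.70 on the log2 scale (adjusted p = 0.016, edgeR). Pla2g4b fell by 0.35. The call of Pla2g2a was lost without CNT-7 rat 3 (adjusted p = 0.1005), and that of Pla2g4b without any one of CNT-7 rats 3, 5 and 10 and CNT-T rats 1, 2 and 12 (adjusted p between 0.101 and 0.13) or without CNT-7 rats 3 and 5 together (adjusted p = 0.31).

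Of 5 other prostaglandin synthase genes tested, 4 were not significant, among them Ptges2 (log2 fold change -0.15) and Ptges3 (-0.15), the other forms of prostaglandin E synthase. Hpgds, the prostaglandin D synthase of blood cells, was lower, at 0.16 ± 0.093 CPM in CNT-7 rats and 0.89 ± 0.78 CPM in CNT-T rats (SD, n = 4; log2 fold change -2.50, adjusted p = 0.027, edgeR), and is named after its values were seen. The call was lost without CNT-7 rats 3 and 5 (adjusted p = 0.17). Its CNT-T mean came in large part from CNT-T rat 2, at 2.04 CPM, whereas CNT-T rats 1, 12 and 13 lay between 0.43 CPM and 0.65 CPM.

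Of 8 other tested lipoxygenase, leukotriene and epoxygenase genes, 2 were lower and 6 were not significant. The share called was 25%, beside 27.9% of all genes tested. The 2 lower genes, Mgst2 and Mgst3, are relatives of Ltc4s. Mgst1, another relative, was not significant (log2 fold change -0.038, adjusted p = 0.86, edgeR), at means of 134 CPM in CNT-7 and 138 CPM in CNT-T. Mgst2, a glutathione transferase of the membrane that can also make leukotriene C4, was at 18.1 CPM, 20.03 CPM, 16.6 CPM and 13.1 CPM in CNT-7 rats 3, 5, 10 and 11, and at 63.1 CPM, 33.1 CPM, 58.4 CPM and 42.9 CPM in CNT-T rats 1, 2, 12 and 13. The groups did not overlap, and Mgst2 moved against Ltc4s (log2 fold change -1.54 with a standard error of 0.21, and adjusted p = 0.0012, edgeR). Mgst3 fell by 0.71 with overlap (adjusted p = 0.096, edgeR), and its call was lost without any one of CNT-7 rats 5, 10 and 11 and CNT-T rats 1, 2 and 12 (adjusted p between 0.15 and 0.23). With all rats kept but no filter on low counts, the call of Mgst3 was lost as well (adjusted p = 0.12, edgeR). Cotl1, which binds 5-lipoxygenase, had a log2 fold change of -0.070 and Dpep2, which trims cysteinyl leukotrienes, one of -0.18, neither significant.

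Of 11 tested genes of eicosanoid breakdown and transport, 3 were higher and 2 lower. Ptgr1, which inactivates leukotriene B4 and oxidised prostaglandins, was at 5.96 ± 1.64 CPM in CNT-7 rats and 19.5 ± 5.84 CPM in CNT-T rats (SD, n = 4; log2 fold change -1.71, standard error 0.26, adjusted p = 0.0020, edgeR), without overlap. Ptgr2, a prostaglandin reductase, rose by 0.48 on the log2 scale, and Cyp4f5, a cytochrome P450, by 0.89. Without CNT-7 rats 3 and 5 the calls of Ptgr2 (0.38, adjusted p = 0.15), Abcc1 (adjusted p = 0.14) and Cyp4f18 (adjusted p = 0.14) were lost. Abcc1, the exporter of leukotriene C4, had a log2 fold change of 0.31 (adjusted p = 0.068, edgeR), which did not pass without any one of CNT-7 rats 5 and 10 and CNT-T rats 2 and 12 (adjusted p between 0.14 and 0.17). Cyp4f18, which oxidises leukotriene B4, fell by 0.69 with overlap (adjusted p = 0.093, edgeR), and did not pass without any one of CNT-7 rats 3, 10 and 11 and CNT-T rats 1, 12 and 13 (adjusted p between 0.103 and 0.22).

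Of 8 tested receptors, 3 were higher and 2 lower in CNT-7. Cysltr1, the main receptor of cysteinyl leukotrienes, was at 97.9 CPM, 92.3 CPM, 106 CPM and 70.3 CPM in CNT-7 rats 3, 5, 10 and 11, and at 45.4 CPM, 47.7 CPM, 57.2 CPM and 54.5 CPM in CNT-T rats 1, 2, 12 and 13. The groups did not overlap, and the rise was 1.79-fold (log2 fold change 0.84 with a standard error of 0.13, and adjusted p = 0.0023, edgeR). Ptgir, the prostacyclin receptor, rose by 0.38 on the log2 scale without overlap (adjusted p = 0.019, edgeR), but without CNT-7 rats 3 and 5 the value was 0.25 and the call was lost (adjusted p = 0.20). Without these 2 rats the calls of Ltb4r (0.57, adjusted p = 0.46), Cmklr1 (adjusted p = 0.14) and Fpr2 (adjusted p = 0.19) were lost as well. Ltb4r, the high-affinity receptor of leukotriene B4, was between 8.43 CPM and 25.1 CPM in CNT-7 and between 3.65 CPM and 11.7 CPM in CNT-T (log2 fold change 1.14, adjusted p = 0.069, edgeR), and its call was lost without any one of CNT-7 rats 3 and 5 and CNT-T rats 1, 12 and 13 (adjusted p between 0.12 and 0.18). Cmklr1, a receptor of chemerin and of a resolvin, fell by 0.65 on the log2 scale, a call lost without CNT-7 rat 5 (adjusted p = 0.106), and Fpr2, the lipoxin receptor, named after its values were seen, was at 0.23 ± 0.16 CPM in CNT-7 rats and 0.83 ± 0.22 CPM in CNT-T rats. The prostaglandin E receptors Ptger2 and Ptger4 had log2 fold changes of -0.11 and 0.097 and were not significant.

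**Figure D4:**
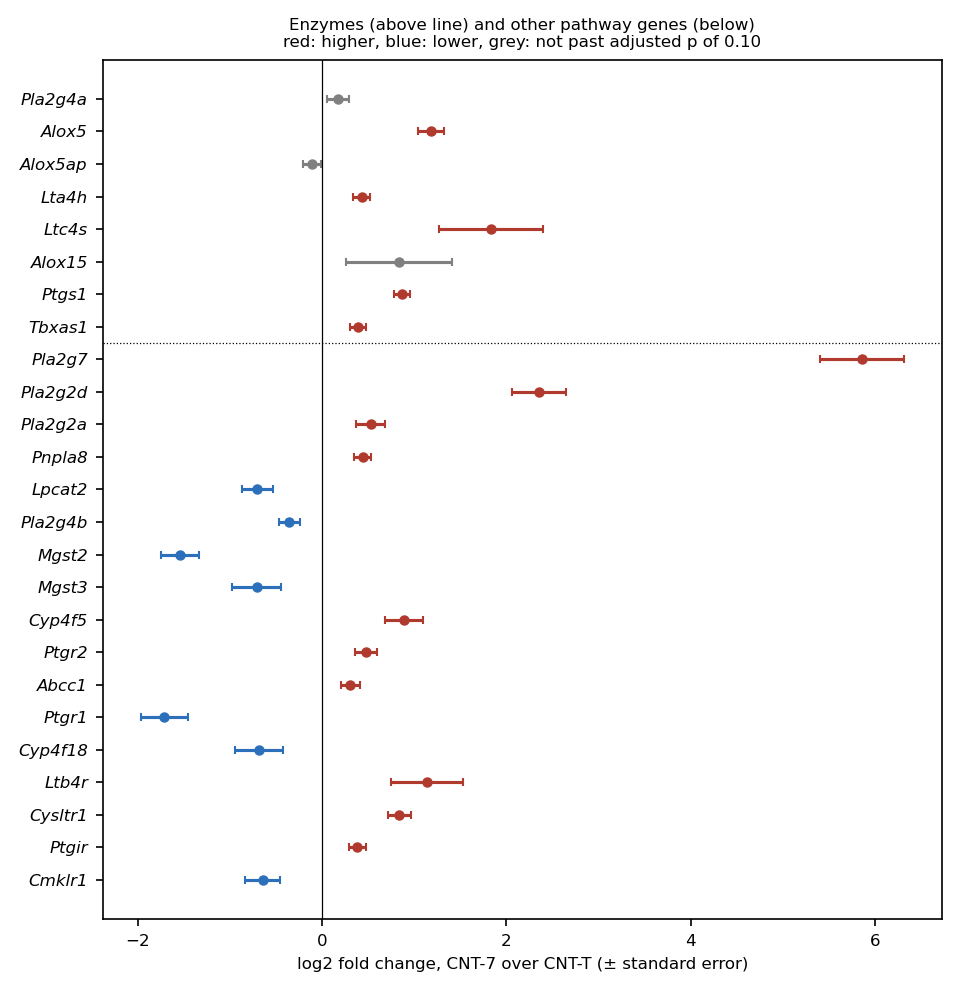
Fitted log2 fold changes between the particles (positive where CNT-7 was higher), each with its standard error, for the 8 tested enzymes (above the dotted line) and the 17 other named genes of the pathway (below it). Red points are significantly higher, blue points significantly lower and grey points not significant, and Pla2g7 lies farthest out at 5.86.

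**Figure D5:**
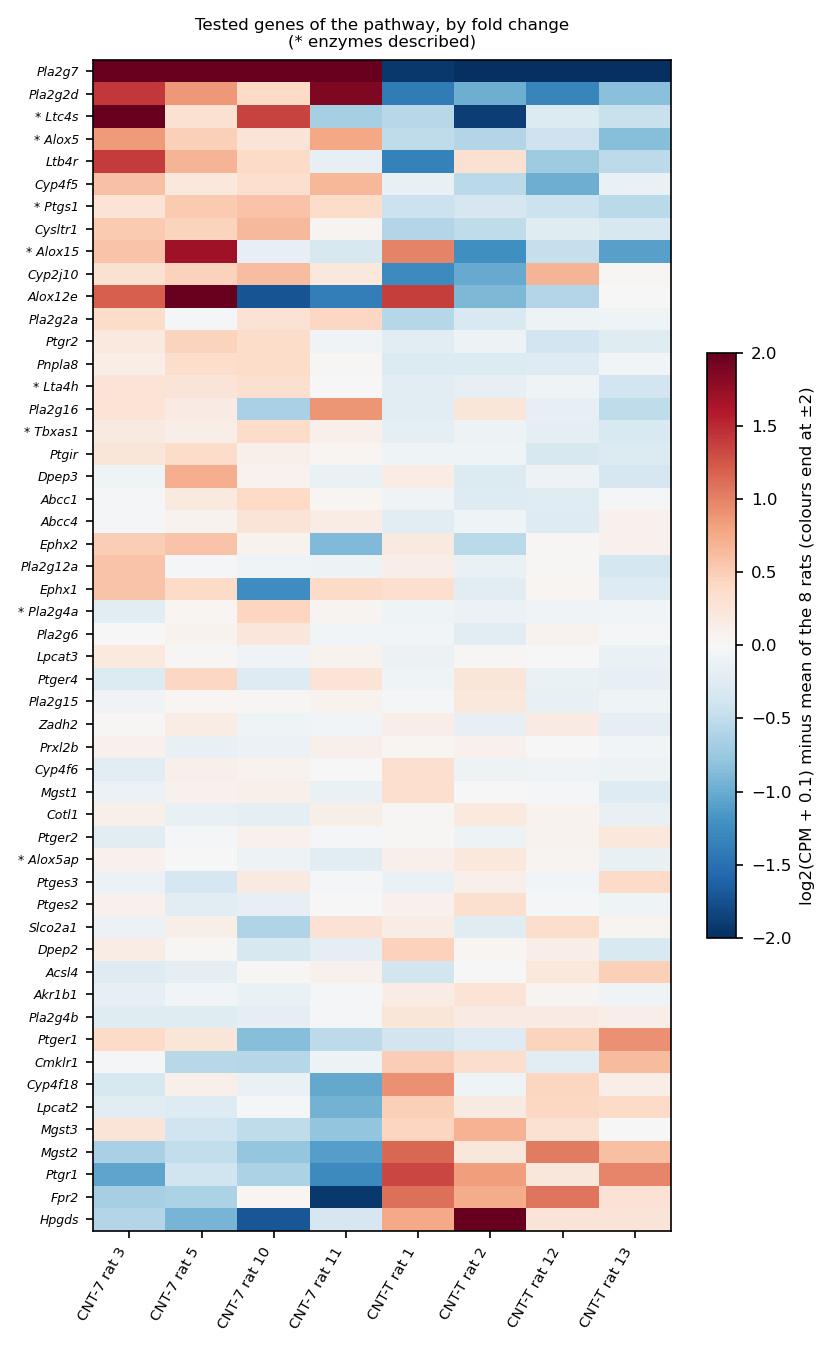
Levels of the 8 tested enzymes (with a star) and the 44 other tested genes of the pathway in each rat, as log2(CPM + 0.1) minus the mean of the 8 rats, ordered by fold change, with colours ending at 2 in both directions. Ltc4s, Alox15 and Alox12e differ among rats of the same group, while Alox5 and Ptgs1 are alike within groups.

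Markers of some other cells moved with the particle as well. Of 4 tested dendritic cell markers, 3 were higher in CNT-7 (Ccr7, Clec9a and Batf3), beside 13.9% of all genes tested. The other, Zbtb46, was not significant (log2 fold change -0.22, adjusted p = 0.65, edgeR). Ccr7 and Clec9a were low, with 176 and 153 counts over the CNT-7 rats and 13 and 47 over the CNT-T rats. The 6 markers in the table summed to between 13.4 CPM and 19.1 CPM in CNT-7 and between 7.34 CPM and 15.7 CPM in CNT-T. Of the 10 macrophage markers, 6 were significantly lower and 1 higher, beside 14.0% and 13.9% of all genes tested. Lower were Adgre1 (log2 fold change -1.13), C1qc (-1.10), C1qb (-0.86), Fcgr1a (-0.54), Cd68 (-0.34) and Csf1r (-0.33), and Cd14 was higher (0.46). Mertk, Lyz2 and C1qa were not significant. The part of cells with these dendritic cell and macrophage markers in the rises of Alox5, Ptgs1, Pla2g2d and Cysltr1 was not tested. The neutrophil marker S100a8 was lower in CNT-7 without overlap (log2 fold change -1.46, adjusted p = 0.016, edgeR). The other 4 tested neutrophil markers were not significant. Fitted log2 fold changes were 1.23 for S100a9, 1.26 for Cxcr2, 0.39 for Csf3r and -0.68 for Elane. S100a9 was at 0.43 CPM, 3.69 CPM, 0.22 CPM and 0.14 CPM in CNT-7 rats 3, 5, 10 and 11. In the CNT-T rats it was between 0.36 CPM and 0.65 CPM, so its positive value came from CNT-7 rat 5. All 10 neutrophil markers summed to between 33.9 CPM and 63.0 CPM in CNT-7 and between 26.3 CPM and 68.5 CPM in CNT-T, most of it Csf3r, and Mpo was at 0 counts in all 8 rats.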

How the data were processed

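Macrophage RNA from 4 rats given CNT-7 and 4 given CNT-T was analysed, with groups and rat numbers taken from the labels. The authors quantified reads with Salmon (version not given in the sources used here) against Ensembl cDNA sequences of Rnor_6.0 and summed them to genes with tximeta. The deposited values are estimated counts without normalization, already whole numbers, so rounding changed nothing. Such counts divide reads between similar transcripts.

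All 23487 genes entered the quasi-likelihood test of edgeR 4.0.16 (R 4.3.3) with TMM scaling and the default filter (minimum count 10, minimum total 15), which left 12124 genes. P-values were adjusted by Benjamini-Hochberg over these, and 0.10 was the threshold, as in the study. Standard errors are the log2 fold change over the square root of F. The p-values measure the spread between rats. Counting floors of 3 counts cover counting error only. Alternatives were DESeq2 1.42.0, other scalings, filters and thresholds, low against high rat numbers as a block, and rats left out. The scripts were tested on simulated data.

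The enzymes and lists were chosen with earlier results of these data known. Named were all 10 enzymes and, of each wider list, significant genes with at least 1 CPM on average, up to 4 in each direction. For the significant enzyme with the largest change, the 5 genes with the most similar levels were named.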

Additional observations from a re-analysis of the deposited data

Results flagged for a closer look

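In 50 sets of 4 rats (25 genes in CNT-7 and in CNT-T), the gap between the outermost rat and its neighbour was divided by the full spread of the set and held against Dixon's 95% critical value. Chance passes about 1 in 20 such sets, or 2.5 of 50. A single set passed. It was Pnpla8, a phospholipase gene, in CNT-T, where rat 13 gave a quotient of 0.935. This rat had 113 CPM, while CNT-T rats 1, 2 and 12 lay between 96.8 CPM and 97.8 CPM, and all 4 lay below every CNT-7 rat.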

How the results depend on the processing

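No paired analysis was possible because the rat numbers of CNT-7 and CNT-T have none in common. With DESeq2, upper-quartile scaling, library size alone, no filter, at least 10 counts in every rat, or low against high rat numbers as a block, all 8 tested enzymes kept their direction and their side of the threshold. Without a filter Ptgs2 also passed (adjusted p = 0.061, edgeR), with a fitted value that depends on the prior count. Leaving out CNT-7 rats 3 and 5 together, chosen after seeing the data, left 3 enzymes, 11 other pathway genes and 1690 genes in all below the threshold, with log2 fold changes of 0.37 for Lta4h, 1.33 for Ltc4s (both no longer significant) and -0.11 for Alox15 (reversed); fewer rats were compared. A change of at least 2-fold was met by 2 enzymes (Alox5 and Ltc4s), 7 other genes and 1006 in all, in place of 5, 19 and 3383. With each rat left out in turn, log2 fold changes lay between 1.24 and 2.15 for Ltc4s, 0.23 and 1.58 for Alox15, 1.10 and 1.29 for Alox5, 0.83 and 0.92 for Ptgs1, 0.38 and 0.49 for Lta4h, 0.33 and 0.42 for Tbxas1, 0.043 and 0.26 for Pla2g4a, and -0.18 and -0.058 for Alox5ap. Between 4 and 6 enzymes, 14 and 19 other genes and 2578 and 3515 genes in all then passed. Ltc4s lost its call without CNT-7 rat 3 or CNT-T rat 2, Alox15 gained one without CNT-T rat 1, and the cause was not tested. Depth limits what can be said of Ptgs2 and Ptges.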

Other observations

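Genes with levels like the uneven ones of Alox15 were sought after its values were seen. By the same measure of likeness over the 8 rats, the 5 nearest tested genes were Cfap99, Tmem178b, Dyrk1b, Ccdc88c and Bcar3, with root mean square differences of log2 CPM between 0.44 and 0.54. Ccdc88c, which encodes a regulator of Wnt and G protein signalling, was at 10.7 CPM, 16.4 CPM, 9.68 CPM and 7.17 CPM in CNT-7 rats 3, 5, 10 and 11, and at 8.25 CPM, 1.92 CPM, 2.60 CPM and 3.51 CPM in CNT-T rats 1, 2, 12 and 13. It was picked for its likeness over these same rats, so the shared order of rats is no further result. Ccdc88c (log2 fold change 1.44, adjusted p = 0.043, edgeR) and Bcar3 (1.22, adjusted p = 0.017, edgeR) were significantly higher in CNT-7, and the difference of their changes from that of Alox15 was not tested.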
